A study of Mus musculus with 18 samples.

Results

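The Dppa genes (developmental pluripotency associated) are a group of genes named for their expression in pluripotent cells rather than for a shared protein fold. The deposited lists name 4 of them, Dppa2, Dppa3, Dppa4 and Dppa5a, with 5 probe sets. A probe set is a handful of short probes summarised as 1 value for a transcript, or for several similar transcripts. Members were all probe sets whose symbol starts with Dppa in the deposited list of probe sets at least 10-fold above the MEF mean on every mESC and iPSC array. They are 5 of the 477 probe sets of that list and of 45037 on the array. Dppa2 was read by 1429654_at and 1453223_s_at, Dppa3 by 1424295_at, Dppa4 by 1429597_at and Dppa5a by 1416552_at.

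Dppa2 and Dppa4 are small nuclear proteins with a SAP domain that bind each other and chromatin, and they are known to help keep the promoters of developmental genes open to later activation. Dppa3, also called Stella or Pgc7, is abundant in oocytes, early embryos and primordial germ cells, and it limits DNA methylation by interfering with Uhrf1, the protein that brings the maintenance methyltransferase to replicating DNA. Dppa5a, also called Esg1, is an RNA-binding protein with a KH domain and a marker of undifferentiated stem cells.

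Total RNA of 18 samples was measured with 1 array per sample. The 3 MEF samples were fibroblasts from mouse embryos at E13.5, and 3 samples were mESCs. The iPSC groups held 4 samples each. They were made from such MEFs by transfection of Oct4 and EpCAM with EpEX treatment (OE + EpEX), of Klf4 and EpCAM with EpEX treatment (KE + EpEX), or of Oct4, Sox2, Klf4 and c-Myc without it (OSKM). EpCAM is an adhesion protein of epithelial and stem cells, and EpEX is its extracellular domain. The transgenes were carried by PiggyBac transposons and switched on by doxycycline, given for 21 days at 1.5 μg/mL, with feeder cells in the culture. The labels give every sample, mESCs included, a B6.Cg strain with rtTA*M2, the activator that responds to doxycycline, at the ROSA 26 locus, together with B6.129S4-POU5f1tm2Jae/J, which has a modified Oct4 locus. The iPSC and mESC samples were picked clones. The labels call the 3 MEF samples biological replicates, while the series' design text speaks of 1 primary culture. P-values below measure the spread between these clones.

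Values were log2 levels shifted so that each probe set has a median of 0 over the 18 arrays. A value thus places an array against the others for that probe set alone, levels of different genes cannot be set against each other, and signal over background is unknown. In these bulk samples, fewer cells of a type and less RNA per cell cannot be told apart. None of 6 listed trophoblast genes had a named probe set, and of 6 primitive endoderm genes only Pdgfra did, which is also a fibroblast gene. Named probe sets come only from lists chosen by their difference from MEFs, so a marker's contrast with MEFs is fixed by that choice and checks no label. All 15 probe sets of 12 fibroblast genes, such as Col1a1, Pdgfrb and Postn, were higher on each MEF array than on any other array. The mean of 10 pluripotent cell markers lay between −7.27 and −7.20 in MEFs and between −0.12 and 0.90 elsewhere. Within that list, Pou5f1 (1417945_at), which encodes Oct4, stood apart. Its mESC mean was 5.65 ± 0.02 (SD, n = 3), beside group means from −0.10 to 0.43 in the iPSC groups.

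All 5 Dppa probe sets were far lower in MEFs than in any other sample, as the list requires. Since the list was chosen by this difference, it is described here and was not tested. Dppa5a had values of −9.22, −9.55 and −10.15 in MEFs, and its lowest other array was 768-fold above the MEF mean. For Dppa2 the lowest other array was 241-fold above the MEF mean by 1429654_at and 381-fold by 1453223_s_at. Dppa4 had values of −7.17, −7.67 and −7.10 in MEFs, with a lowest ratio of 124-fold. Dppa3 was the member nearest to the list's threshold. It had values of −3.95, −4.21 and −4.92 in MEFs, and its lowest ratio was 15.7-fold, while the last probe set in the list stood at 10.03-fold. Since signal over background in MEFs is unknown, these ratios were not ranked between genes. Probe sets just outside the threshold carry no symbol, so none could be named as Dppa.

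**Figure D1:**
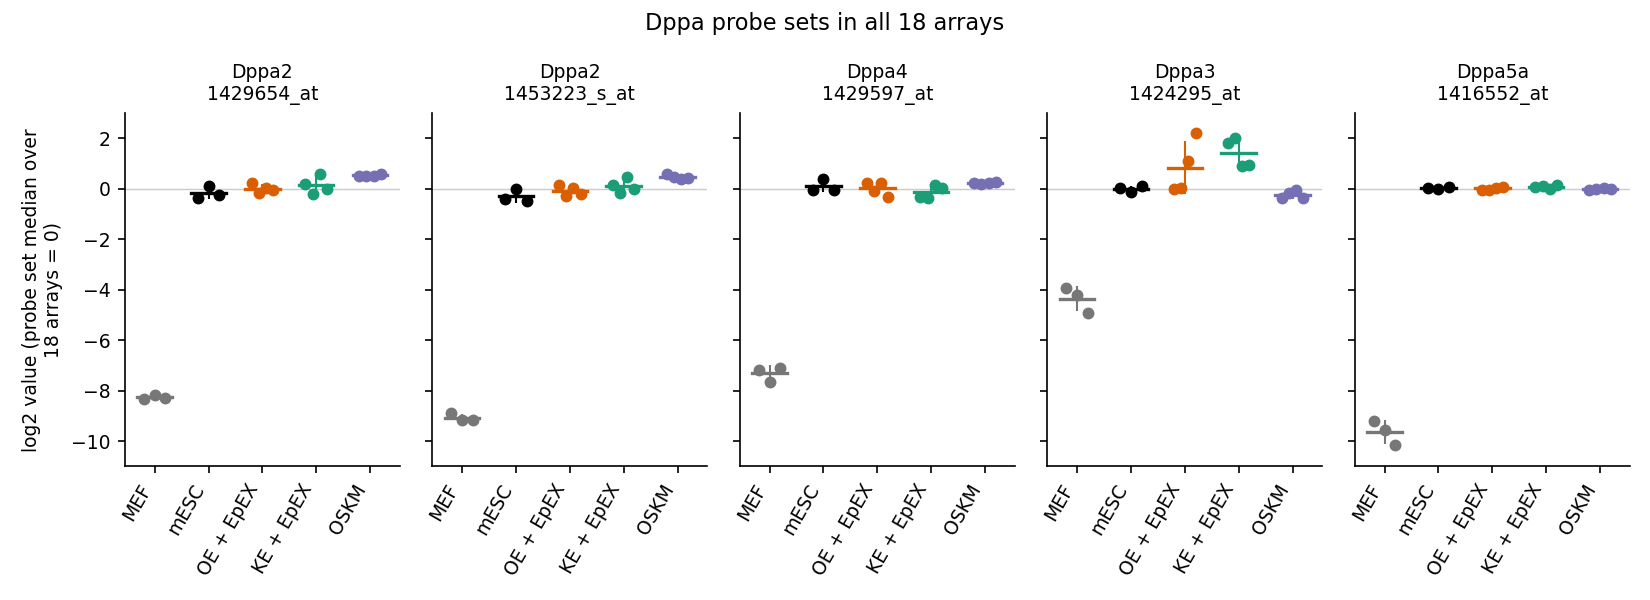
Log2 values (vertical axis, 0 is each probe set's median over 18 arrays) of the 5 Dppa probe sets in the 5 groups. Points are arrays, horizontal lines are group means and vertical lines are ± 1 SD. MEFs lie between −10.15 and −3.95, and all other arrays between −0.50 and 2.23.

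Among the 15 mESC and iPSC arrays, the members differed widely in how much they varied. Dppa5a varied little, with a range of 0.19 on the log2 scale (1.14-fold) and an SD of 0.057. Only 0.41% of all probe sets had a smaller SD over these arrays. Dppa3 ranged over 2.61 (6.11-fold), with an SD of 0.90, and 98.9% of probe sets had a smaller SD. Dppa4 ranged over 0.73 (SD 0.24, above 69.9% of probe sets), and the Dppa2 probe sets over 0.95 and 1.08 (SDs of 0.33 and 0.34, above 84.2% and 85.6%).

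**Figure D2:**
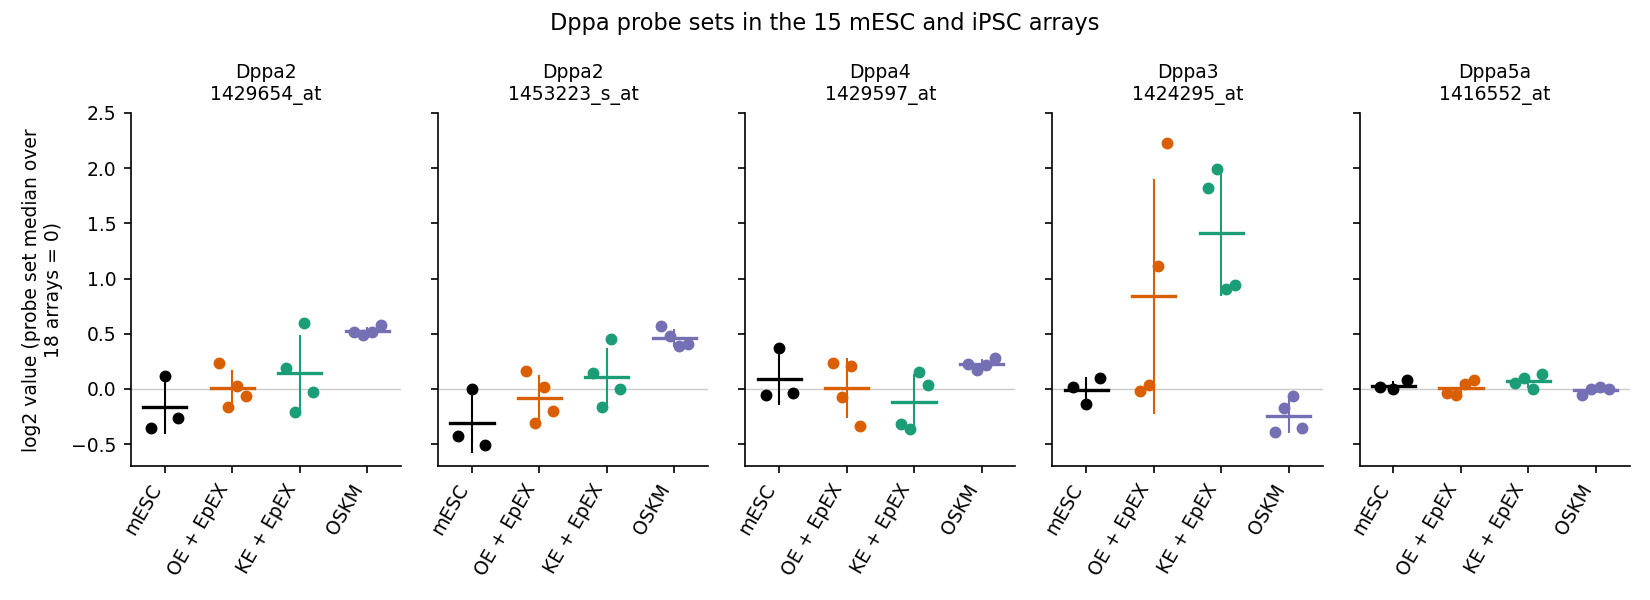
Log2 values of the 5 Dppa probe sets on the 15 mESC and iPSC arrays, on 1 vertical scale. Points are arrays, horizontal lines are group means and vertical lines are ± 1 SD. Dppa3 spreads from −0.39 to 2.23, whereas Dppa5a stays between −0.05 and 0.14.

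Differences between these groups were tested with limma on all 45037 probe sets, and a probe set was called at a Benjamini-Hochberg adjusted p under 0.05. The fit takes 1 spread per probe set, shared by mESCs and all iPSC groups. Its p-values and intervals thus also carry the spread of groups outside a comparison. The comparisons with mESCs share the mESC arrays and those with OSKM share the OSKM arrays, so they are not independent of each other. Where all clones of 1 group lay above or below another group, the share of all probe sets doing so was not counted. Such separation is given as description. Against mESCs, OE + EpEX iPSCs had 0 of 5 Dppa probe sets called by limma, beside 14.2% of all probe sets. None of the 5 had an unadjusted p under 0.05 by limma, beside 27.2% of all probe sets, or by the methods' t-test, beside 22.6%. KE + EpEX iPSCs had 1 of 5 called, Dppa3, beside 16.7% of all probe sets. OSKM iPSCs had 2 of 5 called, both of Dppa2, beside 17%. Against OSKM, OE + EpEX iPSCs had 0 of 5 called by limma, beside 1.23% of all probe sets, with 3 of 5 at an unadjusted p under 0.05 (16.5% of all) and 2 by the methods' t-test (18.3%). KE + EpEX iPSCs had 0 of 5, beside 0.00222%, with 4 of 5 at an unadjusted p under 0.05 (12% of all) and 3 by the methods' t-test (11.1%). In both comparisons with OSKM, 2 of the probe sets at an unadjusted p under 0.05 by limma read the same gene, Dppa2. They moved together (r = 0.97), so they are not separate members. Between OE + EpEX and KE + EpEX iPSCs 0 of 5 were called, as were 0% of all probe sets, and none of the 5 had an unadjusted p under 0.05 by limma (8.27% of all) or by the methods' t-test (6.04%). The median difference of the 5 probe sets from mESCs was 0.13 in OSKM, 0.30 in KE + EpEX and 0.17 in OE + EpEX iPSCs, and over all probe sets these medians were −0.02, −0.02 and −0.05. The called shares of all probe sets against mESCs also stand beside the counts of listed genes below.

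**Figure D3:**
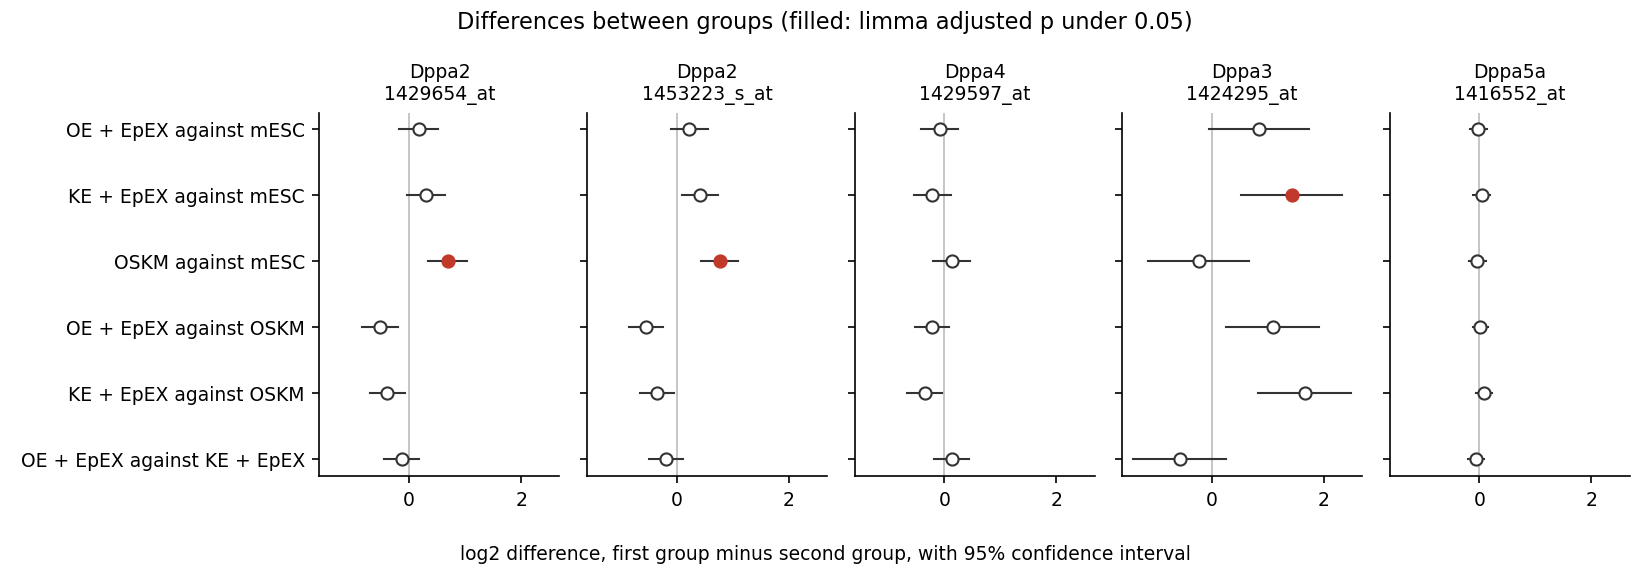
Log2 difference (horizontal axis, first group minus second group) of each Dppa probe set in the 6 comparisons, with 95% confidence intervals from limma. Filled points passed an adjusted p under 0.05: Dppa2 in OSKM against mESCs (0.69 and 0.77) and Dppa3 in KE + EpEX against mESCs (1.42).

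Dppa2 was higher in OSKM iPSCs than in mESCs. By 1429654_at, mESCs had values of −0.35, 0.12 and −0.26, OE + EpEX iPSCs 0.23, −0.17, 0.02 and −0.07, KE + EpEX iPSCs 0.19, −0.20, 0.60 and −0.02, and OSKM iPSCs 0.52, 0.49, 0.52 and 0.58. The OSKM clones lay close together and above every mESC and OE + EpEX clone, while KE + EpEX clone 3 was above all of them. By 1453223_s_at, mESCs had values of −0.42, 0.004 and −0.50, OE + EpEX iPSCs 0.16, −0.31, 0.02 and −0.20, KE + EpEX iPSCs 0.15, −0.16, 0.45 and −0.004, and OSKM iPSCs 0.57, 0.48, 0.39 and 0.41. The arrays fell in much the same order. Both probe sets put the group means in the order mESC, OE + EpEX, KE + EpEX and OSKM.

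The difference between OSKM iPSCs and mESCs was 0.69 on the log2 scale for 1429654_at (1.61-fold, SE 0.16, 95% interval 0.35 to 1.03, adjusted p = 0.00736, limma). It was 0.77 for 1453223_s_at (1.70-fold, SE 0.15, 95% interval 0.44 to 1.10, adjusted p = 0.00253, limma). Both calls were kept in each fit that left out 1 array, with adjusted p from 0.00114 to 0.0488 (limma). Quantile normalization over all 18 arrays, MEFs included, raised the differences to 1.58 and 1.51. The same step without the MEF arrays raised them less. No pair of neighbours in the order of means was called. For 1429654_at OE + EpEX was 0.17 above mESCs (95% interval −0.17 to 0.51), KE + EpEX was 0.14 above OE + EpEX (OE + EpEX minus KE + EpEX −0.14, 95% interval −0.45 to 0.18), and KE + EpEX was below OSKM, at −0.39 (95% interval −0.70 to −0.07, adjusted p = 0.313, limma).

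Against OSKM, OE + EpEX iPSCs stood at −0.52 and −0.54 for the Dppa2 probe sets, and no OE + EpEX clone reached the OSKM range. The adjusted p was 0.0935 and 0.0713 (limma), so neither was called. Both were called with only these groups in the fit (adjusted p = 0.0177 and 0.0256, limma). Both were also called with quantile normalization over all 18 arrays, which takes in the MEF arrays and widened the differences to −1.30 and −1.24. The difference between KE + EpEX iPSCs and mESCs for 1453223_s_at was 0.41 (95% interval 0.09 to 0.74, adjusted p = 0.081, limma) and passed the threshold without KE + EpEX clone 2 (adjusted p = 0.0458) or without mESC clone 2 (adjusted p = 0.0242).

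Dppa4, the binding partner of Dppa2 and its next neighbour on the chromosome, had 0 calls in the 6 comparisons by limma, and 1 at an unadjusted p under 0.05. Its values were −0.05, 0.37 and −0.04 in mESCs, 0.24, −0.08, 0.21 and −0.33 in OE + EpEX iPSCs, −0.31, −0.36, 0.15 and 0.04 in KE + EpEX iPSCs, and 0.23, 0.18, 0.22 and 0.28 in OSKM iPSCs. The OSKM clones were again the closest together, and all 4 KE + EpEX clones lay below them. The largest difference was that of KE + EpEX against OSKM, at −0.35 (95% interval −0.66 to −0.04, unadjusted p = 0.0297, adjusted p = 0.355, limma). Against mESCs the intervals were −0.20 to 0.47 in OSKM, −0.55 to 0.12 in KE + EpEX and −0.42 to 0.25 in OE + EpEX, so a difference of 2-fold or more (1 on the log2 scale) lay outside each of them. Group means rose in the order KE + EpEX, OE + EpEX, mESC and OSKM, and no pair of neighbours in it was called. Without KE + EpEX clones 1 and 2 and OE + EpEX clone 4 this order did not hold, with differences from mESCs of 0.0026 in KE + EpEX and 0.0304 in OE + EpEX.

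For the partner genes, the distance between Dppa2 and Dppa4 is described by group. The mean of both Dppa2 probe sets minus Dppa4 was −0.33 ± 0.02 (SD, n = 3) in mESCs. It was 0.27 ± 0.05 in OSKM, 0.25 ± 0.23 in KE + EpEX and −0.05 ± 0.18 in OE + EpEX iPSCs (SD, n = 4 each). Every iPSC clone was above the mESC range on this measure, the lowest being −0.19 in OE + EpEX. As each probe set is centred on its own median, only the change of this difference between groups can be read, and it was not tested. Over the 15 arrays the Dppa2 probe set 1429654_at followed 1453223_s_at (r = 0.97, rho = 0.94) and, more loosely, Dppa4 (r = 0.59, rho = 0.64). With group means taken out the latter was r = 0.71.

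Dppa3 was higher in KE + EpEX iPSCs than in mESCs. Its values were 0.02, −0.14 and 0.10 in mESCs, −0.39, −0.17, −0.07 and −0.36 in OSKM iPSCs, −0.02, 0.03, 1.12 and 2.23 in OE + EpEX iPSCs, and 1.82, 1.995, 0.90 and 0.94 in KE + EpEX iPSCs. All 4 KE + EpEX clones were above every mESC and OSKM clone, a separation whose share over all probe sets was not counted. In OE + EpEX, clones 1 and 2 lay within the mESC range, while clones 3 and 4 were above every mESC clone and clone 4 had the highest value of all arrays. Within groups of 4 the SD was 0.15 in OSKM, 0.57 in KE + EpEX and 1.06 in OE + EpEX iPSCs, and it was 0.12 for the 3 mESC clones.

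The difference between KE + EpEX iPSCs and mESCs was 1.42 (2.68-fold, SE 0.42, 95% interval 0.53 to 2.32, adjusted p = 0.0292, limma). This call was lost by the methods' t-test after adjustment (adjusted p = 0.0982) and at a threshold of 0.01. It was also lost when any 1 of the 3 mESC arrays, KE + EpEX clone 1 or KE + EpEX clone 2 was left out (adjusted p from 0.0717 to 0.0877, differences from 1.23 to 1.48). The comparison of KE + EpEX with OSKM gave the largest difference among the members, 1.66 (3.16-fold, 95% interval 0.83 to 2.49, unadjusted p = 0.000665), but in a comparison with 1 call over all probe sets its adjusted p was 0.132 (limma). It passed without KE + EpEX clone 3 (adjusted p = 0.0276, limma). With quantile normalization over all 18 arrays it was 2.55 (adjusted p = 0.0174, limma). That setting takes in the MEF arrays and widened the Dppa2 differences too, so this pass is given as description only. OE + EpEX iPSCs were 0.85 above mESCs (95% interval −0.05 to 1.74, adjusted p = 0.21, limma) and 1.08 above OSKM iPSCs (95% interval 0.26 to 1.91, adjusted p = 0.173, limma), and without OE + EpEX clone 4 these values were 0.39 and 0.62. OSKM iPSCs and mESCs differed by −0.24 (95% interval −1.13 to 0.66). The shared spread behind this interval comes mostly from the OE + EpEX and KE + EpEX clones, which are not in the comparison. OE + EpEX minus KE + EpEX was −0.58 (95% interval −1.40 to 0.25, adjusted p = 0.715, limma).

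The clones with the most Dppa3 RNA were those with the least Dppa4. KE + EpEX clones 1 and 2 and OE + EpEX clone 4 held the 3 highest Dppa3 values and the 3 lowest Dppa4 values. Over the 15 arrays Dppa3 and Dppa4 were related with r = −0.78 and rho = −0.78, with r = −0.58 without the 2 arrays farthest from the Dppa3 median, and with r = −0.68 after group means were taken out. Each array contributes both values, so its RNA and its processing are shared by them. Dppa3 and Dppa5a were related with r = 0.68, rho = 0.70 and r = 0.56 without the same 2 arrays, although Dppa5a moved by no more than 0.19.

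The same 3 clones also had the highest levels of fibroblast genes among the iPSCs. The mean of the 15 fibroblast marker probe sets was 1.26 in KE + EpEX clone 1, 0.84 in OE + EpEX clone 4 and 0.48 in KE + EpEX clone 2. It ranged from −0.54 to −0.34 in mESCs, from −0.33 to −0.17 in OSKM iPSCs, from −0.15 to 0.84 in OE + EpEX iPSCs, from −0.64 to 1.26 in KE + EpEX iPSCs and from 4.57 to 6.16 in MEFs. Against mESCs, limma called 0 of the 15 higher and 1 lower in KE + EpEX (median 0.77), 1 and 0 in OE + EpEX (median 0.60), and 1 and 1 in OSKM iPSCs (median 0.17). The lower one was Pdgfra, at −1.10 in KE + EpEX and −1.74 in OSKM (adjusted p = 0.012 and 0.00048, limma). The higher one in OSKM was Postn, at 2.19 (adjusted p = 0.041, limma). Postn differed by 1.72 in KE + EpEX and 1.83 in OE + EpEX and was not called there. At an unadjusted p under 0.05 the counts were 6 and 1 in KE + EpEX, 9 and 1 in OE + EpEX, and 1 and 2 in OSKM. Of all 45037 probe sets, 12378, 12245 and 12571 had such a p in that order, both directions together. Dppa3 was related to this mean over the 15 arrays with r = 0.73 and rho = 0.40, and with r = 0.47 without KE + EpEX clone 1 and OE + EpEX clone 4. For Dppa4 these values were −0.70, −0.40 and −0.41, so the relation was not particular to Dppa3. Without these 3 clones, an alternative chosen after seeing the data, the Dppa3 difference between the 2 remaining KE + EpEX clones and mESCs fell from 1.42 to 0.93 (adjusted p = 0.0353, limma). KE + EpEX clones 3 and 4 had the lowest fibroblast means of all arrays, at −0.60 and −0.64, with Dppa3 values of 0.90 and 0.94. The part of the fibroblast genes in the spread of Dppa3 and Dppa4 was not tested.

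**Figure D4:**
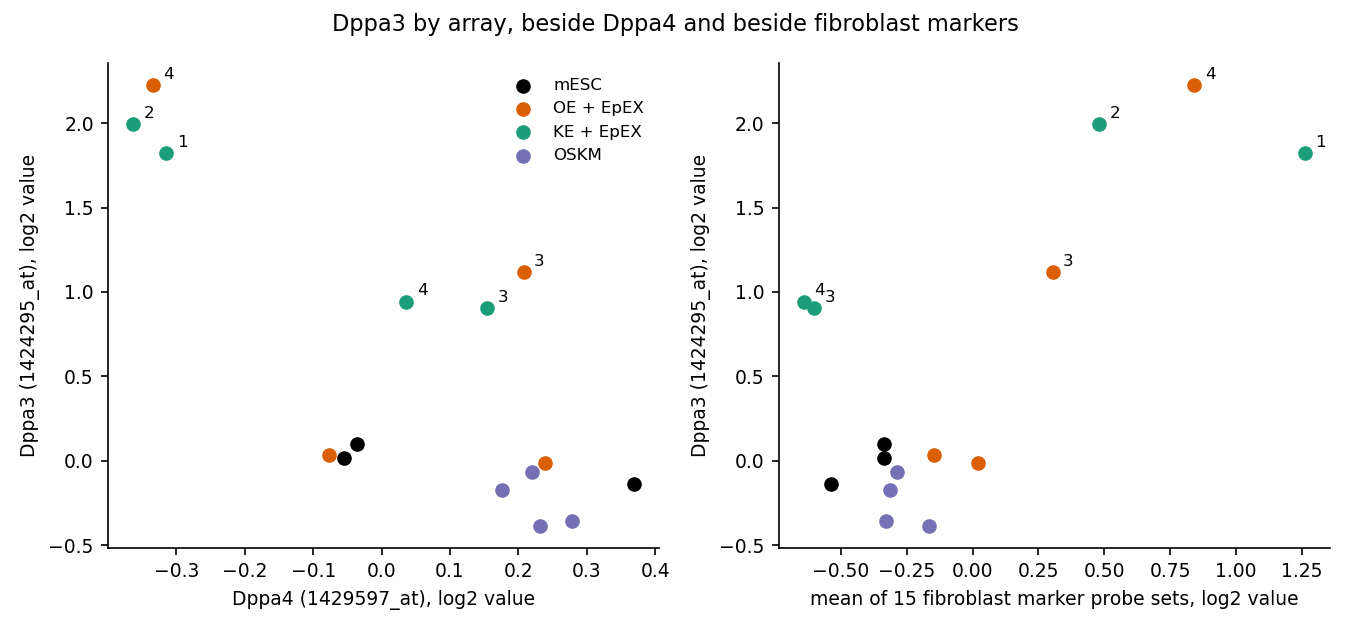
Dppa3 log2 value (vertical axes) of the 15 mESC and iPSC arrays against the Dppa4 log2 value (left) and the mean log2 value of 15 fibroblast marker probe sets (right). Points are arrays coloured by group, with clone numbers where Dppa3 is above 0.6. OE + EpEX clone 4 and KE + EpEX clones 1 and 2 hold the 3 highest Dppa3 values, the 3 lowest Dppa4 values and the 3 highest fibroblast means.

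Germ cells also express Dppa3, and 6 of 8 listed germ cell markers had a named probe set. The mean of their 9 probe sets ranged from −0.09 to 0.08 in mESCs, from −0.02 to 0.13 in OSKM, from −0.15 to 0.02 in OE + EpEX and from 0.04 to 0.39 in KE + EpEX iPSCs. By clone this mean did not follow Dppa3. KE + EpEX clones 1 and 2, which had more Dppa3 than clones 3 and 4, were at 0.04 and 0.05. Clones 3 and 4 were at 0.39 and 0.34, and OE + EpEX clone 4, with the highest Dppa3 value, was at −0.01. In KE + EpEX iPSCs 3 of the 9 were higher than in mESCs, that of Ddx4 and 2 of 3 of Tfap2c, and 0 were lower. The median difference of the 9 was 0.15, against −0.24 in OE + EpEX and −0.03 in OSKM. Ddx4 (1427242_at), an RNA helicase of germ cells, was higher by 0.60 in KE + EpEX (adjusted p = 0.0407, limma), 0.66 in OE + EpEX and 0.78 in OSKM iPSCs. In OE + EpEX iPSCs 2 were higher and 2 lower, and the lower ones were those of Dazl, an RNA-binding protein of germ cells, at −0.86 for 1449502_at (adjusted p = 0.0132, limma). In OSKM iPSCs 1 was higher and 1 lower. The part of these genes in the Dppa3 difference was not tested.

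Dppa5a had 0 calls in the 6 comparisons by limma, also at an unadjusted p under 0.05, and the narrowest intervals. Its values were 0.02, −0.004 and 0.08 in mESCs, −0.04, −0.05, 0.04 and 0.08 in OE + EpEX iPSCs, 0.05, 0.10, −0.003 and 0.14 in KE + EpEX iPSCs, and −0.05, 0.003, 0.01 and −0.003 in OSKM iPSCs. Each iPSC group overlapped with mESCs. Differences from mESCs were −0.04 in OSKM (95% interval −0.19 to 0.11), 0.04 in KE + EpEX (−0.11 to 0.19) and −0.02 in OE + EpEX iPSCs (−0.17 to 0.13), with adjusted p from 0.782 to 0.883 (limma). The intervals of all 6 comparisons lay between −0.20 and 0.22.

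Neighbouring genes on the chromosome were compared next, with the gene order of the RefSeq annotation of GRCm38.p6. Dppa3 lies between Gdf3, a TGF-beta family ligand, and Nanog, a core pluripotency factor, with the glucose transporter gene Slc2a3 after Nanog. These genes had 6 named probe sets, and 0 of them were called by limma in OE + EpEX or KE + EpEX iPSCs against mESCs, with 2 in each at an unadjusted p under 0.05. Of all 45037 probe sets, 12245 and 12378 had such a p. In KE + EpEX, where Dppa3 was higher, Nanog differed by 0.37 (95% interval 0.08 to 0.66, adjusted p = 0.0756, limma), Gdf3 by 0.20 and 0.03, and Slc2a3 by −0.07, −0.21 and −0.25. In OSKM iPSCs 1 of 2 Gdf3 probe sets was higher (0.34 for 1449288_at, adjusted p = 0.0318) and 2 of 3 Slc2a3 probe sets were lower (−0.34 for 1437052_s_at and −0.37 for 1455898_x_at, adjusted p = 0.0231 and 0.038, limma).

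Dppa2 lies between Dppa4 and Morc1, a germline gene needed for transposon silencing. Morc1 was not called against mESCs, with differences of −0.25 in OSKM iPSCs, where both Dppa2 probe sets were higher, −0.19 in KE + EpEX and −0.09 in OE + EpEX. Next to Dppa5a lies Ooep, which encodes another KH domain protein, of the oocyte's subcortical complex. Ooep was higher than in mESCs by 0.77 in KE + EpEX (adjusted p = 0.00717, limma) and by 0.58 in OSKM iPSCs (adjusted p = 0.0359, limma), with a difference of 0.42 in OE + EpEX (adjusted p = 0.139, limma). Its relative Khdc3 had differences of 0.84, −0.13 and 0.14 in the same order as Morc1 and was not called. In OSKM iPSCs both Ooep and Khdc3 had an unadjusted p under 0.05 (limma), beside 12571 of all 45037 probe sets. The SD of Khdc3 was 0.035 in OSKM and 0.80 in KE + EpEX iPSCs, which share 1 spread in the fit. Among 3 relatives of the maternal complex, Nlrp4f (1436794_at), an NLR family gene of oocytes and embryos, was higher in all 3 iPSC groups, by 2.42 in OSKM, 2.02 in KE + EpEX and 2.48 in OE + EpEX.

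Genes of DNA methylation were taken as the setting in which Dppa3 acts. Of 14 listed genes 4 had named probe sets, 8 in all. Uhrf1 (1415810_at) was lower than in mESCs by a small amount in the EpEX groups, at −0.27 in OE + EpEX (adjusted p = 0.0343, limma) and −0.34 in KE + EpEX iPSCs (adjusted p = 0.0077, limma), and differed by −0.07 in OSKM iPSCs. Its other probe set, 1415811_at, had −0.16, −0.26 and 0.04 and was not called. Dnmt3b, a de novo methyltransferase, was higher by both probe sets in OSKM (1.59 and 1.49) and OE + EpEX iPSCs (1.09 and 1.03), with differences of 0.52 and 0.47 in KE + EpEX that were not called. Dnmt3l, its cofactor, was higher in OSKM iPSCs by 1.28 (adjusted p = 0.0268, limma), with differences of 0.73 in OE + EpEX and 0.07 in KE + EpEX. The 3 probe sets of Tet1, which oxidises methylated cytosine, had differences from −0.09 to 0.70 and were not called. Over the list 2 probe sets were higher and 1 lower in OE + EpEX (median 0.57), 0 and 1 in KE + EpEX (median 0.11), and 3 and 0 in OSKM iPSCs (median 0.55).

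**Figure D5:**
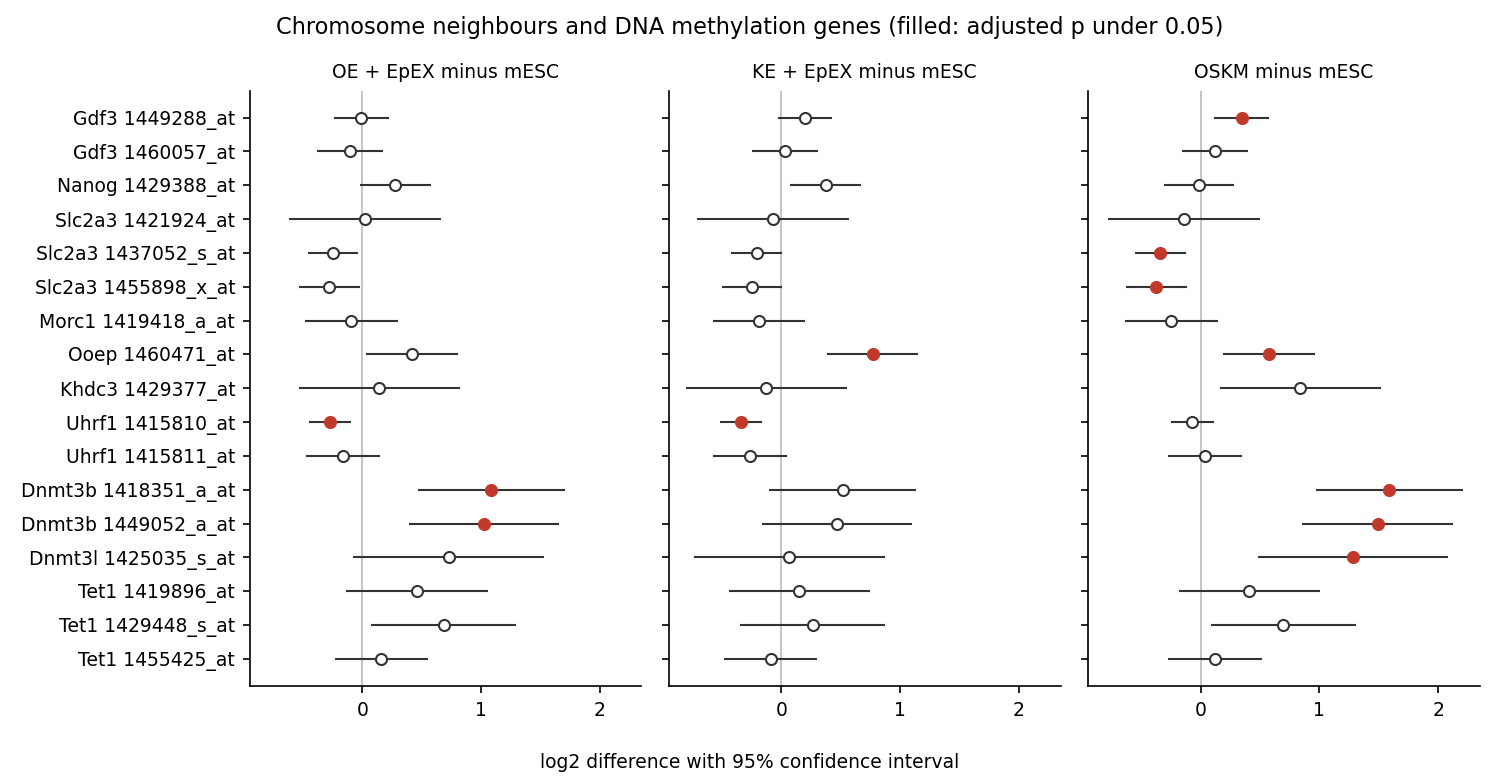
Log2 difference from mESCs (horizontal axes, iPSC group minus mESC) with 95% confidence intervals for the 17 named probe sets of the chromosome neighbours (Gdf3 to Khdc3) and of 4 DNA methylation genes (Uhrf1 to Tet1). Filled points passed a limma adjusted p under 0.05, such as Dnmt3b in OE + EpEX and OSKM and Uhrf1 1415810_at in both EpEX groups.

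Germline genes whose promoters are kept silent by DNA methylation were counted as well, 12 of 23 with a named probe set. Of their 14 probe sets, 4 were higher and 3 lower than in mESCs in OE + EpEX (median 0.03), 4 and 1 in KE + EpEX (median 0.02), and 5 and 0 in OSKM iPSCs (median 0.22). Stk31 (1425317_x_at), a germ cell kinase-like gene, was higher by 2.0004 in OSKM, 1.85 in KE + EpEX and 1.59 in OE + EpEX iPSCs. In the same order, Rhox5 (1423429_at), an X-linked homeobox gene, was higher by 1.48, 1.22 and 1.35. Of the 27 listed genes of the 2-cell-like programme, on which Dppa2 and Dppa4 act, only Rpl39l had a named probe set, and it was not called in any comparison.

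The genes most like each member were found by Pearson's r over the 15 mESC and iPSC arrays, among 686 other genes with 1 symbol in the deposited lists. For Dppa2 they included Tex19.1 (r = 0.90) and Jarid2 (0.89) by 1429654_at, and Jarid2 (0.89) and Dyrk3 (0.87) by 1453223_s_at. Tex19.1 is a germline gene that restrains transposons, Jarid2 a cofactor of Polycomb complex PRC2, and Dyrk3 a protein kinase gene.

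For Dppa4 the first 3 genes were Trim71 (0.89), an RNA-binding ubiquitin ligase gene of stem cells, Mkrn1 (0.89), another ubiquitin ligase gene, and Eras (0.87), a Ras gene of embryonic stem cells. For Dppa3 they were 2610019F03Rik (0.91), Fabp3 (0.91), a fatty acid binding protein gene, and Pcdh18 (0.88), a protocadherin gene. Pcdh18 differed from the other 2 in its MEF level, 4.32 ± 0.69 (SD, n = 3), while 2610019F03Rik and Fabp3 were at −3.84 ± 0.41 and −4.30 ± 1.20. For Dppa5a the first 3 were Nup210 (0.82), a nuclear pore gene, Prdm14 (0.80), a naive pluripotency factor, and Spc24 (0.75), a kinetochore gene. The arrays shared by each pair, and the difference between groups that many genes share, enter these values. With group means taken out, most of these genes were no longer among the first 3. For Dppa3 0 of 3 stayed, and the first 3 were then Wfdc2, Ddc and Aspn. Mkrn1 and Eras dropped out for Dppa4, Prdm14 and Spc24 for Dppa5a, and Tex19.1 and Jarid2 for Dppa2 by 1429654_at, while Jarid2 and Dyrk3 stayed by 1453223_s_at.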

How the data were processed

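Total RNA of 18 samples was hybridised to Affymetrix mouse expression arrays. The authors used GeneSpring GX, and what they deposited are log2 values, each probe set centred on its median over the 18 arrays. The submitters' processing notes also name MAS5 and RMA without a role. The software version and the normalization between arrays are not given in the sources used here. The deposited lists, which give symbols for 931 probe sets, also hold fold columns relative to the MEF mean, which were not used. Labels name Trizol and biotin, the methods RNeasy and Cy3.

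After 64 control probe sets were left out, 45037 were fitted with limma 3.58.1 in R 4.3.3 (functions lmFit and eBayes), with 1 mean for each group over the 15 mESC and iPSC arrays. MEFs stayed out because the members were chosen on them and their arrays were uneven (root mean square differences between pairs from 0.236 to 0.883). The Benjamini-Hochberg adjustment ran over all probe sets of a comparison. The fit was tested on simulated data. The number of arrays limits the precision. Other steps ran in Python 3.11.15 (scipy 1.17.1, numpy 2.4.6, matplotlib 3.10.9, pandas 2.3.3).

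The members and gene lists were chosen with earlier results of these data known. Named were all members, the 3 genes most like each, the listed partners and chromosome neighbours with a probe set, and in each other list the 2 genes with the largest called difference from mESCs. Tfap2c was named after its values were seen. For Dppa2, 1 result of the likeness search is not reported here. Alternatives were all 18 arrays or only the compared groups in the fit, quantile normalization, median centring of arrays, eBayes with trend and robust options, a 2-fold threshold, an adjusted p under 0.01, the probe sets with the larger spread, the methods' t-test (unpaired, equal variances) raw or adjusted, a block for the replicate number, and a fit without each array in turn. For likeness they were Spearman's rho, quantile normalization and deviations from group means. Gene order came from RefSeq, and no sequences of the members were used here.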

Additional observations from a re-analysis of the deposited data

How the results depend on the processing

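The 3 called differences kept their direction in all 60 alternatives and their call in 50. The call of Dppa3 in KE + EpEX against mESCs was the least stable, and the number of Dppa probe sets called there fell to 0 at an adjusted p under 0.01 and by the adjusted methods' t-test, and lay between 0 and 1 when single arrays were left out. Without KE + EpEX replicate 2, and likewise without mESC replicate 2, the 1 called was Dppa2 1453223_s_at in place of Dppa3. The count thus stayed the same in 4 of these 7 fits, while Dppa3 kept its call in 2 of 7. In OSKM against mESCs 0 were called with a 2-fold threshold, as both differences of Dppa2 were smaller, and 2 in each fit without 1 array. In OE + EpEX against OSKM 2 were called with only the compared groups in the fit, with quantile normalization and by the unadjusted methods' t-test. In KE + EpEX against OSKM 1 was called with quantile normalization and 3 by the unadjusted methods' t-test, with a range of 0 to 2 when single arrays were left out. Where no cause is given, the cause was not tested.

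The replicate numbers did not pair the arrays. Deviations from group means correlated between −0.36 and 0.25 over the 21 pairs with the same number and between −0.35 and 0.46 over the 63 others. With the replicate block 0 Dppa probe sets were called in KE + EpEX against mESCs (Dppa3 1.34, adjusted p = 0.0811, limma), and the block changed no other call of a Dppa probe set.

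Of the 27 uncalled differences, some changed sign, all of them small. Dppa5a in OE + EpEX against mESCs was 0.0133 with quantile normalization and 0.0091 with arrays centred on their medians, and ranged from −0.0464 to 0.002 when single arrays were left out. The same ranges were −0.0066 to 0.0385 for Dppa5a in OE + EpEX against OSKM, −0.1607 to 0.0541 for Dppa4 in OE + EpEX against mESCs and −0.2502 to 0.0174 for Dppa2 1429654_at in OE + EpEX against KE + EpEX.

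Alternatives chosen after seeing the data were quantile normalization over the 15 mESC and iPSC arrays and a fit without the 3 arrays with the highest mean of fibroblast markers. With the former 2 were called in OE + EpEX against OSKM, 1 in KE + EpEX against OSKM, and Dppa2 in OSKM against mESCs differed by 0.90 and 0.87. Dppa5a in OE + EpEX against mESCs was then 0.0109. With the latter every count of called Dppa probe sets stayed the same, while Dppa4 differed from mESCs by 0.0026 in KE + EpEX and 0.0304 in OE + EpEX and Dppa5a in OE + EpEX against OSKM was −0.0066. Signal over background is unknown in these centred values, so detection limits could not be given.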

Other observations

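Naive pluripotency genes, in a list drawn up here without the Dppa genes, moved both ways against mESCs. Of 19 probe sets of 14 genes, 2 were higher and 2 lower in OSKM (median difference 0.09), 3 and 3 in KE + EpEX (median 0.16), and 2 and 3 in OE + EpEX iPSCs (median 0.09). Nr5a2 (1420410_at), a nuclear receptor gene, was lower in all 3 iPSC groups, at −2.02 in OSKM, −1.45 in KE + EpEX and −1.58 in OE + EpEX, as was Zfp42 (1418362_at), known as Rex1 too, at −1.96, −1.68 and −1.78 in that order. Of 8 probe sets of 5 formative and primed genes, 4 were higher in OSKM, 0 in KE + EpEX and 2 in OE + EpEX iPSCs, with 0 lower in each by limma. These calls came from 2 genes in OSKM, Dnmt3b and Nodal, and from Dnmt3b alone in OE + EpEX. Dnmt3b was also counted among the DNA methylation genes above. At an unadjusted p under 0.05, 2 were higher and 3 lower in KE + EpEX, beside 12378 of all 45037 probe sets in both directions together. Nodal (1422057_at), a TGF-beta family ligand, was higher in OSKM iPSCs by 0.91 (adjusted p = 0.0124, limma), with differences of 0.67 and 0.69 in OE + EpEX and KE + EpEX that were not called. In KE + EpEX, where Dppa3 was higher and no formative gene was called, the median difference of these 8 probe sets was 0.01, and in OSKM it was 0.35. The 5 Dppa probe sets in the 3 iPSC groups gave 15 groups of 4 arrays, and 0 of them held an array standing apart by Dixon's test, which would mark about 1 in 20 by chance.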
